A study of Homo sapiens with 6 samples.

Results

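The genes described here are 10 transcription factors that set lineage and maturation in blood cells: SPI1, GFI1, RUNX1, MYB, GATA2, LEF1, WT1, HHEX, EBF3 and NFE2. Every probe set that the platform annotation gives to a member alone was taken, which gave 18 probe sets for 9 genes, out of 41091 probe sets and 19775 genes in all. RUNX1 has 13 probe sets on the array, and each also names 2 other loci, so RUNX1 has no value here. Of the 18 probe sets, 15 reached the median of all values (3.66 on the log2 scale) on at least 1 array and entered the trend test. The other 3, a pair of LEF1 and 1 of EBF3, stayed below it.

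NB4 is an established human line of acute promyelocytic leukaemia with the fusion gene PML-RARA. All-trans retinoic acid (ATRA) is the ligand of retinoic acid receptors under which it matures toward neutrophils. The 6 Affymetrix arrays hold untreated cells (0 h) and cells after 4, 12, 24, 48 and 72 h in ATRA at 1e-06 M, with 1 array per time. All arrays come from the same line, and no untreated culture of a later time is among them, so time in ATRA and time in culture cannot be told apart. No value below has a replicate.

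Blood lineages are set by small groups of transcription factors that activate the genes of 1 fate and repress those of others. SPI1 (PU.1) drives myeloid genes, GFI1 represses genes that block granulocyte formation, and MYB, RUNX1, GATA2 and HHEX act in stem and progenitor cells. WT1 is known as a marker of leukaemic blasts, NFE2 as a factor of platelet and red cell formation, LEF1 as the nuclear partner of beta-catenin, and EBF3 as a relative of the B cell factor EBF1.

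The arrays differ technically in the spiked control bioC, which averaged 8.01 and 8.11 on the 0 and 12 h arrays and 6.88 to 7.17 on the 4, 24, 48 and 72 h arrays. Trends were therefore also fitted with the bioC level as a covariate and, as a choice made after seeing the data, within the 4, 24, 48 and 72 h arrays alone. The labelled cell type was checked against its markers: MPO was at 12.90 and PRTN3 at 10.76 in untreated cells. ANPEP was at 10.02, AZU1 at 9.32 and CTSG at 6.83, and CD33, also on that promyelocyte list, has no probe set of its own. In the trend test below MPO, CTSG and ANPEP (-3.56 at 72 h) fell, while PRTN3 and AZU1 were not called. The monocyte markers CD14, MRC1, MSR1, VCAN and C1QA stayed below 3.66 on all 6 arrays. The remaining monocyte marker of the list, CSF1R, lay between 4.78 and 6.51, with a 72 h difference of 1.31 and no called trend, and the summed log2 level of 6 monocyte markers lay between 19.0 and 21.2 on the 6 arrays.

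At 72 h the factors had moved apart. SPI1 was 2-fold or more higher than in untreated cells, and WT1, EBF3, GATA2, GFI1, MYB and NFE2 were 2-fold or more lower. Those 6 of 9 genes stand beside a background of 12.2% of all 13594 genes that were as much lower at 72 h, and the single higher gene beside 10.9%. At 4 h 5 of 9 were already 2-fold or more lower (EBF3, MYB, HHEX, WT1 and GFI1), where 1.81% of all genes were, and SPI1 was higher, where 1.74% of all genes were. The median difference of the 9 genes was -1.07 at 4 h and -1.70 at 72 h, while that of all genes was 0.03 and -0.06. At 12 h 1 of 9 was higher (2.3% of all genes) and 3 lower (1.93%), at 24 h 1 higher (3.35%) and 2 lower (1.99%), and at 48 h 1 higher (5.83%) and 5 lower (4.49%). Fewer cells that express a gene and less RNA of it per cell cannot be told apart in these bulk samples.

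**Figure D1:**
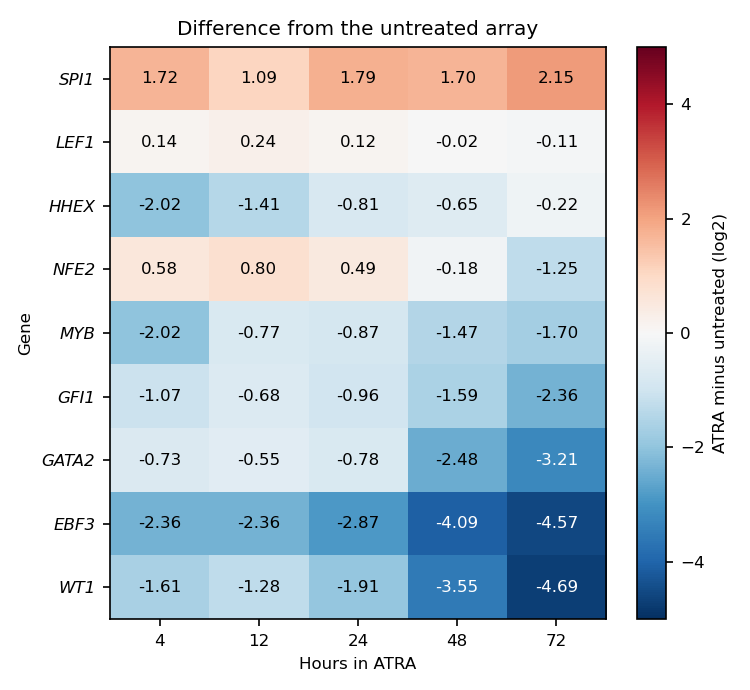
Log2 difference of each ATRA array from the untreated array for the probe set that represents each gene (rows) at each time in hours (columns), with the value printed in each cell. SPI1 is positive at all 5 times (1.09 to 2.15), WT1 and EBF3 reach -4.69 and -4.57 at 72 h, and HHEX is at -2.02 at 4 h and at -0.22 at 72 h.

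The trend test asked whether a straight line over time order (0 to 5) had a slope, with limma and Benjamini-Hochberg adjustment over all 13594 genes. WT1, EBF3, GATA2 and GFI1 fell, 4 of 9 genes beside 9.86% of all genes, and 0 of 9 rose, beside 8.33%. In limma SPI1 was the only other member with an unadjusted p under 0.05. A line fits a steady or late change better than an early step or a passing one, and the members' courses include all of these.

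SPI1, read by the single probe set 205312_at, was at 7.11 in untreated cells and at 8.83, 8.20, 8.91, 8.81 and 9.26 after 4, 12, 24, 48 and 72 h in ATRA. All 5 ATRA values lie above the untreated one, and most of the distance was present at 4 h. The level was 3.29-fold higher at 4 h and 4.43-fold higher at 72 h than in untreated cells, and the 4 h difference was 80.0% of the 72 h one on the log2 scale. At 12 h, where the bioC level matches that of the untreated array, the level was 2.12-fold higher. The fitted slope was 0.33 ± 0.10 per step (log2, SE) and missed the call (limma adjusted p = 0.0538). It was 0.21 ± 0.10 with the bioC covariate (limma adjusted p = 0.19) and 0.42 ± 0.06 without the 4 h array (limma adjusted p = 0.0141). Without the untreated array the slope was 0.15 ± 0.09 (limma adjusted p = 0.334), and within the 4, 24, 48 and 72 h arrays 0.08 ± 0.07 (limma adjusted p = 0.459).

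Of 11 myeloid genes that SPI1 is known to activate, 8 were kept and 5 of them rose, with 0 falling and a median difference of 2.41 at 72 h. Beside each list count here and below stand 8.33% of all genes rising and 9.86% falling. CD14 and MSR1 of this list stayed below 3.66, and CSF1R, CSF2RA and TLR4 were not called. A further TLR4 probe set rose when tested as a feature of its own (3.18 at 72 h, limma adjusted p = 0.0195), and its others did not. ITGAM and ITGB2, the chains of the integrin Mac-1, had 72 h differences of 4.07 and 3.19, the oxidase subunit CYBB of 3.90 and the G-CSF receptor CSF3R of 3.86. ITGAM was called in 1 of its 2 probe sets. The kinase BTK rose by 0.18 ± 0.04 per step (limma adjusted p = 0.0261). Their 4 h differences were smaller than their 72 h ones: 0.52 for ITGAM, 0.56 for ITGB2, 0.16 for CYBB and 1.32 for CSF3R. Among 10 kept ETS family relatives of SPI1 (median 0.47 at 72 h), ELK3 and ELF4 rose and 0 fell. ELF4 differed from untreated by 1.86 at 4 h and by 2.50 at 72 h, a course that, like that of SPI1, holds most of its distance at 4 h. ELK3 was higher by 0.65 and 2.69, and its other kept probe set by 0.68 at 72 h without a call. ETV6, an ETS repressor, had differences of -2.21 at 4 h and -1.56 at 72 h, and ETS1 one of -1.30 at 72 h, neither with a called trend.

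GFI1, a zinc finger repressor of granulocyte precursors, was at 8.10 in untreated cells and at 7.03, 7.42, 7.13, 6.51 and 5.74 after 4, 12, 24, 48 and 72 h. Every ATRA value is below the untreated one and the last is the lowest. It fell by 0.39 ± 0.08 per step (limma adjusted p = 0.0137), to 5.12-fold lower at 72 h than in untreated cells. The call ended without the 72 h array (-0.31 ± 0.09, limma adjusted p = 0.0997), without the untreated array (-0.35 ± 0.10, limma adjusted p = 0.0737) with the bioC covariate (-0.33 ± 0.09, limma adjusted p = 0.0538) and with the arrays shifted to 1 level of all hybridisation controls (-0.24 ± 0.15, limma adjusted p = 0.447).

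GFI1B, the close relative of GFI1 that acts in red cell and megakaryocyte precursors, went the other way. Its level was 4.44 in untreated cells and 6.68, 6.75, 7.05, 7.59 and 7.80 at the 5 ATRA times, and the slope was 0.57 ± 0.11 per step (limma adjusted p = 0.0156). A further probe set of GFI1B also rose, with a difference of 2.13 at 4 h and 3.15 at 72 h. With the bioC covariate the GFI1B slope was 0.48 (limma adjusted p = 0.0665). Markers of megakaryocytes (0 of 4 kept genes called, median 0.17 at 72 h) and of erythroid cells (0 of 4, median 0.01) did not pass the test.

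GFI1 silences genes through the demethylase KDM1A (LSD1) and histone deacetylases. Of 6 genes in the list of its relative and corepressors (median -0.41 at 72 h), GFI1B rose and KDM1A fell, by 0.31 ± 0.05 per step (limma adjusted p = 0.00543). HDAC2 and EHMT2 had 72 h differences of -1.04 and -0.98, not called. Of 7 kept genes that GFI1 is known to repress (median 1.43 at 72 h), 3 rose and 0 fell: ID2 (higher by 4.86), EGR1 (2.50) and the monocyte growth factor CSF1 (1.43). CSF1 was called in 1 of its 4 kept probe sets, and none of the 3 EGR1 probe sets was called when each probe set was tested as a feature of its own. ID1 had differences of 5.99 at 4 h and of 4.52 at 72 h, a step without a called slope.

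MYB, which keeps progenitors dividing, was lowest at 4 h. Probe set 204798_at read 10.94 in untreated cells and 8.92, 10.17, 10.07, 9.47 and 9.24 at the 5 ATRA times. The level was 4.07-fold lower at 4 h, 1.71-fold at 12 h and 3.25-fold at 72 h than in untreated cells. The 12 h array matches the untreated array in bioC level, and the 4 h array does not. SPI1, GFI1, GATA2, WT1 and HHEX were also nearer to untreated at 12 h than at 4 h, while EBF3, NFE2 and LEF1 were not. Whether the low 4 h value of MYB reflects that array difference was not tested. Probe set 215152_at read 5.20 untreated and 3.55, 3.54, 4.16, 3.45 and 3.54 in ATRA. Its 4, 12, 48 and 72 h values lie below 3.66, so it gives no order among those times. MYB had no called slope (-0.20 ± 0.12 per step, limma adjusted p = 0.32), but without the 4 h array the slope was -0.34 ± 0.04 (limma adjusted p = 0.00864). It was -0.04 ± 0.12 with the bioC covariate (limma adjusted p = 0.847) and -0.01 ± 0.14 without the untreated array (limma adjusted p = 0.985).

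Of 4 MYB relatives and coactivators (median 0.26 at 72 h), MYBL2, a cell cycle factor, fell by 0.28 ± 0.07 per step (limma adjusted p = 0.0262). The 72 h differences of MYBL1, CREBBP and EP300 were 0.08, 0.86 and 0.43, none with a called trend. Of 8 kept progenitor and promyelocyte genes known as MYB or RUNX1 targets, 3 fell and 0 rose, with a median of -0.63 at 72 h. These were the granule genes CTSG (72 h difference -2.42) and MPO (-1.98) and the growth regulator MYC (-2.16), while CD34, at -0.87, was not called. BCL2 was not called in the probe set that stood for it (-0.07 at 72 h). A further BCL2 probe set fell when tested as a feature of its own (limma adjusted p = 0.00961). That probe set read 6.05 untreated and 3.79 at 4 h, and lay below 3.66 at all later times. The remaining BCL2 probe sets were not called. Other granule genes of the list did not pass the test: PRTN3 was higher than in untreated cells at all 5 times (0.31 to 0.89), AZU1 differed by -0.27 at 72 h, and ELANE stayed below 3.66. The MYC call ended with the bioC covariate (limma adjusted p = 0.147) and without the 72 h array (limma adjusted p = 0.275). Around RUNX1, 6 core binding factor and ETO family genes had a median of 0.10 at 72 h. The corepressor CBFA2T3 fell, with a difference of -1.29 at 4 h and -2.00 at 72 h (limma adjusted p = 0.0479). The call ended with the bioC covariate (limma adjusted p = 0.167), with cyclic loess (limma adjusted p = 0.0678) and, with a slope of -0.14, without the untreated array (limma adjusted p = 0.292). Its single probe set was not called among all probe sets (limma adjusted p = 0.0508). RUNX2 had differences of -1.18 at 4 h and -1.24 at 72 h and RUNX3 one of 0.70 at 72 h, neither called.

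GATA2, needed by stem, mast and basophil precursors, was lower mainly from 48 h. Probe set 209710_at read 8.20 in untreated cells and 7.47, 7.66, 7.43, 5.73 and 4.99 at the 5 ATRA times. The 4, 12 and 24 h values lie close together and the 48 and 72 h values well below them. The step between the 24 and 48 h arrays was -1.70, and the 24 h difference was 24.2% of the 72 h one. GATA2 fell by 0.62 ± 0.10 per step (limma adjusted p = 0.00832) and was 9.28-fold lower at 72 h than in untreated cells. Without the 72 h array the slope was -0.50 ± 0.12 (limma adjusted p = 0.0566), and with the bioC covariate -0.57 ± 0.13 (limma adjusted p = 0.0406).

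The 3 GATA2 probe sets did not read alike. Probe set 210358_x_at differed from untreated by -1.39 at 48 h and -1.22 at 72 h (6.55 untreated, 5.33 at 72 h) and fell when tested as its own feature (limma adjusted p = 0.037), though not with the bioC covariate (limma adjusted p = 0.126). Probe set 207954_at lay between 4.34 and 4.80 on the 6 arrays and had no called slope (limma adjusted p = 0.866). Of 8 kept genes of the GATA, TAL1 and LMO2 complex (median -0.12 at 72 h), LYL1, a helix-loop-helix factor, fell by 0.22 ± 0.05 per step (limma adjusted p = 0.0215). TCF3 (-1.32 at 72 h, limma adjusted p = 0.0523) and GATA1 (0.41) were not called. Other TCF3 probe sets fell when tested as features of their own, with 72 h differences of -2.05 (limma adjusted p = 0.00156) and -2.22 (limma adjusted p = 0.0287). The remaining TCF3 probe sets were not called, and none rose. Of 3 kept mast cell and basophil genes, HDC, which makes histamine, fell: its differences were -1.27 at 4 h and -3.34 at 72 h (slope -0.68 ± 0.11, limma adjusted p = 0.00647). IL1RL1 (1.11 at 24 h, 0.02 at 72 h) and TPSAB1 (-0.42 at 72 h), the other kept genes, were not called. KIT, CPA3 and FCER1A, other genes of that list, stayed below 3.66.

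WT1, a zinc finger factor, fell in both of its probe sets. Probe set 206067_s_at read 9.13 in untreated cells and 7.53, 7.86, 7.22, 5.58 and 4.44 at the 5 ATRA times. Probe set 216953_s_at read 6.83 untreated and 5.26, 5.91, 4.90, 3.62 and 3.20 in ATRA. Both are low at 4 h, slightly higher at 12 h and lower again from 24 h, and the second is below 3.66 from 48 h. The gene fell by 0.86 ± 0.11 per step (limma adjusted p = 0.00303) and had a 72 h difference of -4.69. The slope was -0.77 ± 0.13 with the bioC covariate (limma adjusted p = 0.02) and -0.77 ± 0.16 within the 4, 24, 48 and 72 h arrays (limma adjusted p = 0.0692). The 3 binding partners WTAP, BASP1 and PAWR had 72 h differences of -0.09, 0.41 and -0.25, and 0 of 3 were called.

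EBF3 was low from the earliest time on. Probe set 227243_s_at read 8.12 in untreated cells and 5.76, 5.76, 5.25, 4.04 and 3.55 at the 5 ATRA times, the last below 3.66. The untreated array stands alone, 2.36 above the next highest array. Probe set 227242_s_at read 6.72 untreated and 3.78, 4.39, 3.13, 2.59 and 2.42 in ATRA, and 1559796_at did not exceed 3.56. EBF3 was 5.13-fold lower at 4 h and at least 22.0-fold lower at 72 h than in untreated cells, where a fold given as at least a value has its low end set to 3.66. It fell by 0.82 ± 0.10 per step (limma adjusted p = 0.00326), and without the untreated array by 0.61 ± 0.09 (limma adjusted p = 0.00972). Within the 4, 24, 48 and 72 h arrays the slope was -0.58 ± 0.09 (limma adjusted p = 0.0514). The relatives EBF1 and EBF2 stayed below 3.66, and EBF4, with a 72 h difference of -0.47, was not called. Of the B cell markers, where EBF1 is known to act, CD79A rose (1.46 at 72 h) and CD79B fell (-1.39), and MS4A1 stayed below 3.66.

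HHEX, a homeobox factor of progenitors, was low early and then came back. Probe set 215933_s_at read 8.66 in untreated cells and 6.63, 7.25, 7.85, 8.01 and 8.44 at the 5 ATRA times. Probe set 204689_at read 7.72 untreated and 5.92, 6.35, 6.83, 6.85 and 7.35. Both have their lowest value at 4 h and climb at every later time. HHEX was 4.07-fold lower at 4 h than in untreated cells and differed by -0.22 at 72 h. That last difference changes sign with cyclic loess (0.06) and with the arrays shifted to 1 level of all hybridisation controls (0.45). Against the 4 h array the 72 h level was 3.51-fold higher, beside 10.1% of all genes that were 2-fold or more higher. Over all 6 arrays the slope was 0.10 ± 0.14 (limma adjusted p = 0.688), and without the untreated array it was 0.44 ± 0.07 (limma adjusted p = 0.0123). Within the 4, 24, 48 and 72 h arrays it was 0.44 ± 0.07 (limma adjusted p = 0.0482).

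Among 4 kept homeobox genes of blood cells (median 0.64 at 72 h), HLX rose by 0.39 ± 0.10 per step (limma adjusted p = 0.033), with a level of 4.19 in untreated cells and 6.22 at 72 h. PBX2 (0.82 at 72 h), PBX3 (0.46) and HOXB4 (0.20) were not called. The HLX call ended with the bioC covariate (0.43 per step, limma adjusted p = 0.074) and without the 72 h array (0.21 per step, limma adjusted p = 0.256).

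NFE2, which drives platelet and globin genes with small MAF partners, read 7.27 in untreated cells and 7.85, 8.07, 7.76, 7.09 and 6.02 at the 5 ATRA times (209930_s_at). It was above the untreated level at 4, 12 and 24 h and lowest at 72 h. The level was 1.74-fold higher at 12 h and 2.38-fold lower at 72 h than in untreated cells. The slope was -0.25 ± 0.12 per step and was not called (limma adjusted p = 0.176). Without the 72 h array the slope was -0.05 ± 0.11 (limma adjusted p = 0.896). Without the untreated array it was -0.46 ± 0.11 (limma adjusted p = 0.0427), and with hours in place of time order the fall was called (limma adjusted p = 0.0259). Of 6 kept partners and relatives (median 0.51 at 72 h), 2 rose and 0 fell: the small MAF protein MAFF, higher by 3.64 at 72 h, and BACH1, a repressor that competes for the same sites, higher by 2.51. NFE2L3 (-0.91) and NFE2L2 (0.89) were not called, and BACH1 was called in 1 of its 2 probe sets. Of 3 platelet genes that NFE2 activates, TBXAS1, thromboxane synthase, rose (1.78 at 72 h), RAB27B fell (-2.15) and TUBB1 differed by 0.04.

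LEF1 stayed low. Its brightest probe set, 221557_s_at, read 3.42 in untreated cells and 3.56, 3.66, 3.54, 3.40 and 3.31 at the 5 ATRA times, and it entered the test through the 12 h value alone. The other LEF1 probe sets did not exceed 2.74. The slope was -0.03 ± 0.04 (limma adjusted p = 0.648), and signals this low give no direction. Around LEF1, 3 of 7 kept genes rose and 0 fell (median 0.14 at 72 h): TCF7L2, the LEF1 relative (2.82), the corepressor TLE4 (2.16) and beta-catenin, CTNNB1 (1.02). TLE1, at -0.53, was not called. TCF7L2 was called in 5 of its 7 kept probe sets tested separately and TLE4 in 4 of 4. The Wnt target genes AXIN2 (-0.06 at 72 h) and NKD1 (0.38) were not called, and LGR5, SP5 and RNF43 stayed below 3.66.

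**Figure D2:**
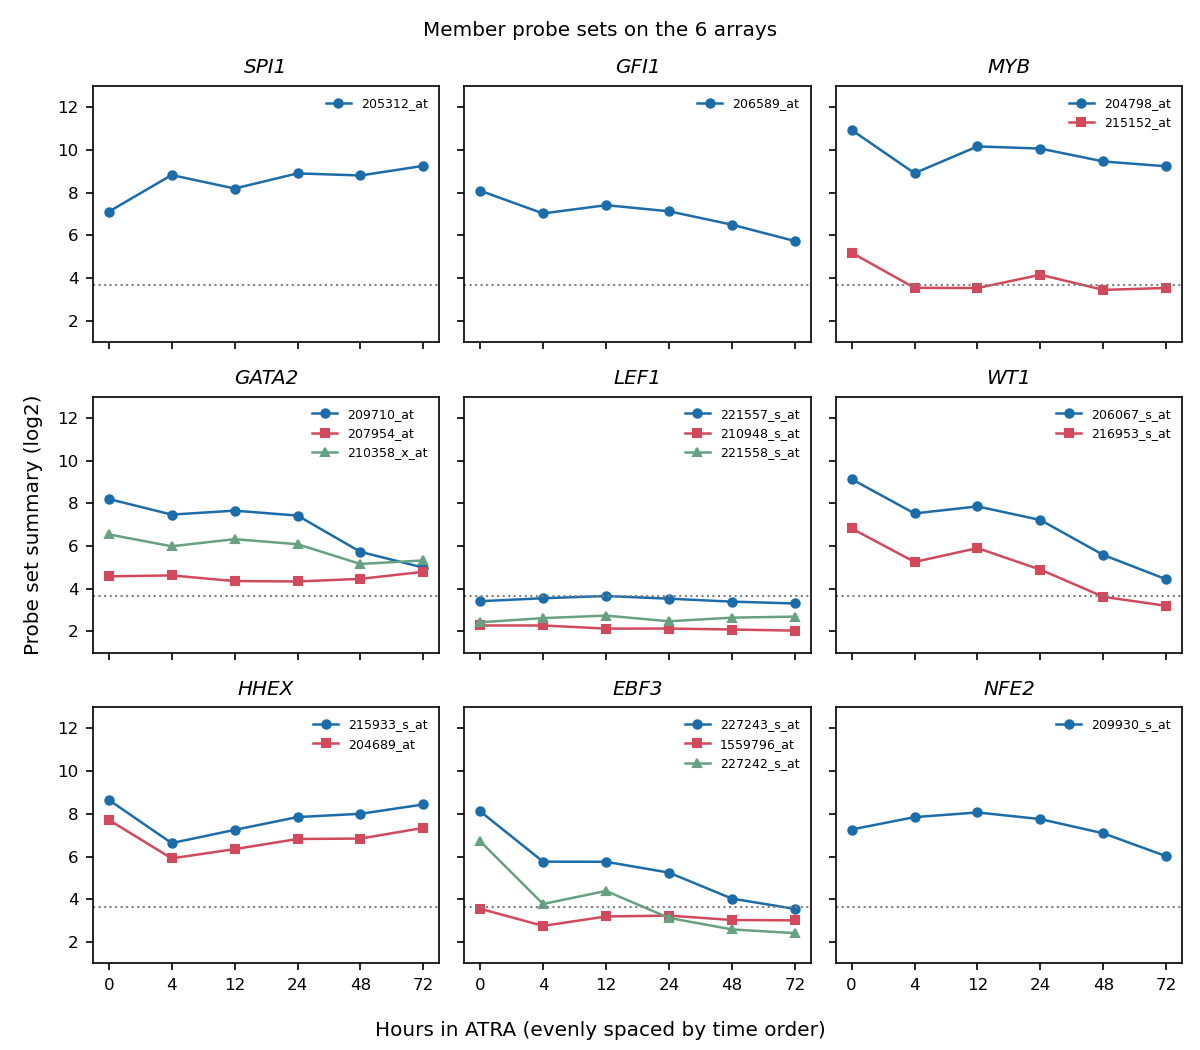
Log2 values of all 18 probe sets (coloured lines, named in each panel) on the 6 arrays, with hours in ATRA on the x axis spaced by time order and the dotted line at 3.66. WT1, GFI1 and the EBF3 probe sets 227243_s_at and 227242_s_at are lowest at 72 h, both HHEX probe sets are lowest at 4 h, and the 3 LEF1 probe sets lie at or near the bottom throughout.

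Tested as features of their own among 25189 probe sets, 7 of 15 member probe sets fell (9.68% of all did) and 0 rose (7.47% of all did). These were both of WT1, 2 of EBF3, 2 of GATA2 and that of GFI1. Probe sets of 1 gene share its RNA and are not replicates.

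**Figure D3:**
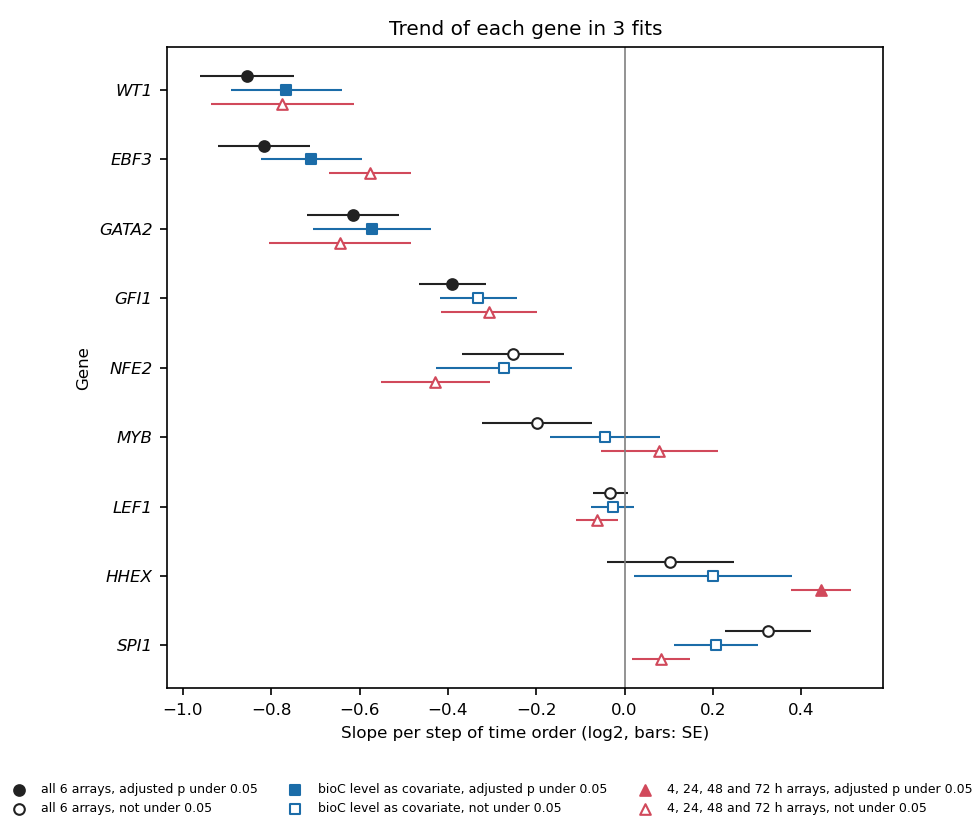
Slope per step of time order (log2, bars are SE) of each gene in 3 fits: all 6 arrays, all 6 with the bioC level as covariate, and the 4, 24, 48 and 72 h arrays. Filled symbols have a limma adjusted p under 0.05. WT1, EBF3 and GATA2 are filled in the first pair of fits (-0.86, -0.82 and -0.62 over all arrays), and HHEX is filled within the 4 arrays alone (0.44).

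At 4 h GFI1 held 45.2% of its 72 h difference, WT1 34.2% and GATA2 22.7%, and EBF3 has no such share because its 72 h value lies below 3.66. Between the 24 and 48 h arrays GATA2, WT1 and EBF3 were 2-fold or more lower, 3 of 9 genes where 0.559% of all genes were, and between 48 and 72 h WT1 and NFE2 were, where 2.14% of all genes were. Against the 4 h array, which shares the bioC level, 5 of 9 were 2-fold or more lower at 72 h (GFI1, GATA2, WT1, EBF3 and NFE2), where 10.4% of all genes were.

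Promoter windows are shown for the 4 falling genes and for MYB and HHEX, which were lowest or near lowest at 4 h, because ATRA acts through receptors that bind short hexamers. Each runs from 250 bases before to 50 after the start farthest 5′ in RefSeq (GRCh38.p14), on the gene's strand, 5′ to 3′. Capitals mark matches, on either strand, to the motifs spelled out after the sequences.
GFI1, chr1:92486876-92487175, minus strand: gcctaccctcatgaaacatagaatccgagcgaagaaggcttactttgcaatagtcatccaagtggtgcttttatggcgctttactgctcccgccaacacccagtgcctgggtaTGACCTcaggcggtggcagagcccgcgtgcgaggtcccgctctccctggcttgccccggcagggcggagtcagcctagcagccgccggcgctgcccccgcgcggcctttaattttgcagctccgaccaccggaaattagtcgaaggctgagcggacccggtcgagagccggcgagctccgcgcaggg
GATA2, chr3:128493152-128493451, minus strand: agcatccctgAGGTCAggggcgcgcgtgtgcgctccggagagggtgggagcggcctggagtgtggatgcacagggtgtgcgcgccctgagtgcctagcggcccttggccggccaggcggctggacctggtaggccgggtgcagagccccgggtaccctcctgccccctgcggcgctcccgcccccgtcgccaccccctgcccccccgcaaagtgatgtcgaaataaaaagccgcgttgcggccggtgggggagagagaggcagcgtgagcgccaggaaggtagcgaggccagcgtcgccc
WT1, chr11:32435490-32435789, minus strand: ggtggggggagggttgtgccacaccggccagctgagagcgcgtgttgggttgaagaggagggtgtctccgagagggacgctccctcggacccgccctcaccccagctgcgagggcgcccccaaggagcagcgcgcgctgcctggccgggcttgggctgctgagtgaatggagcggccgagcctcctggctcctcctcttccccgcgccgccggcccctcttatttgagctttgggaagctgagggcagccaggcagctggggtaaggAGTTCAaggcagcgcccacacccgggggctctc
EBF3, chr10:129964225-129964524, minus strand: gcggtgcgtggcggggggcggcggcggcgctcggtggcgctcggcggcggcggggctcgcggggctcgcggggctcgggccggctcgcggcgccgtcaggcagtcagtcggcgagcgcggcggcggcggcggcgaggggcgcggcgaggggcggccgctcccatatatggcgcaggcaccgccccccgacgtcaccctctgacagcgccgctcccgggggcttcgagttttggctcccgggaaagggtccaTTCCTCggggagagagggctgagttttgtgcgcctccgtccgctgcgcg
MYB, chr6:135181058-135181357, plus strand: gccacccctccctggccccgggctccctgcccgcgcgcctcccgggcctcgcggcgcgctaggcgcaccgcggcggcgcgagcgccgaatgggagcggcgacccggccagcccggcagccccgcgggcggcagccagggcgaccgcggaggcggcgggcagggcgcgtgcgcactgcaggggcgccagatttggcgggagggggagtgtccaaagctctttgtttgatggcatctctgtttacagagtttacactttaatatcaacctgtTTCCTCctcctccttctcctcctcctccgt
HHEX, chr10:92689705-92690004, plus strand: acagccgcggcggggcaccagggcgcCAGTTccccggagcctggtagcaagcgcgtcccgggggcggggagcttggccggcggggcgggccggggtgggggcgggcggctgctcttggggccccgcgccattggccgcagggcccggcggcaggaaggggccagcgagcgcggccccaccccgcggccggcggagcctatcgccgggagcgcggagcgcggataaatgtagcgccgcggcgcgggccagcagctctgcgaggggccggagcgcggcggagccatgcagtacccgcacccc

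The motifs searched were AGGTCA together with its variant AGTTCA for retinoic acid receptors, then GAGGAA for SPI1 and AGATAA for GATA factors. TGTGGT was searched for RUNX proteins, TGACTCA for AP-1 and NFE2, and AACTG for MYB. In these windows GFI1 and GATA2 hold AGGTCA (in GFI1 on the opposite strand) and WT1 holds AGTTCA, and the windows of EBF3, MYB and HHEX hold neither. Of all 35116 windows of the same length, 13.8% hold AGGTCA, 10.4% AGTTCA and 22.6% at least 1 of them. EBF3 and MYB hold GAGGAA on the opposite strand, as do 27.9% of all windows on either strand, and HHEX holds AACTG on the opposite strand, as 39.7% do on either. AGATAA (10.3% of all windows), TGTGGT (13.1%) and TGACTCA (4.95%) are in none of these 6 windows. Windows were read for 8 members, and SPI1 and NFE2 have none. The windows of RUNX1 and LEF1, which are not printed, hold neither retinoic acid receptor motif. Both hold the SPI1 motif, and that of LEF1 also holds the RUNX and MYB motifs. GFI1 has 3 starts, GATA2 2 and WT1 4, and the windows of their other starts, which are not printed, hold further matches. Those of GFI1 hold TGTGGT with AACTG at the second start and GAGGAA at the third. That of GATA2 holds GAGGAA. Of WT1, the fourth start holds AGGTCA, then GAGGAA, then TGACTCA, and AACTG at 2 places, and its other two starts hold none of the motifs.

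The courses most like each member's were sought among all kept genes, as the smallest root mean square distance between the 5 log2 differences from untreated. GFI1 was nearest to ASPH (distance 0.11) and FBXO45 (0.14), and MYB to IRS2 (0.11), whose differences were -2.02 at 4 h and -1.76 at 72 h, and LOC100190986 (0.27). HHEX lay nearest to TENT5A (0.23), with differences of -1.76 at 4 h and 0.14 at 72 h, and SFMBT2 (0.40). SPI1 was nearest to RHOQ (0.23) and GRIN2D (0.25), GATA2 to WDR35 and GRB10 (0.31 each), and NFE2 to PPP1R27 and DNMT3L (0.28 each). WT1 and EBF3 shared CA8 as the nearest gene, at 0.29 and 0.62, followed by TRDV3 (0.52) and GSAP (0.62). LEF1, nearly flat, lay within 0.05 of SLC6A7 and ELAVL3. Among the members themselves the closest pair was GFI1 and MYB (0.53).

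**Figure D4:**
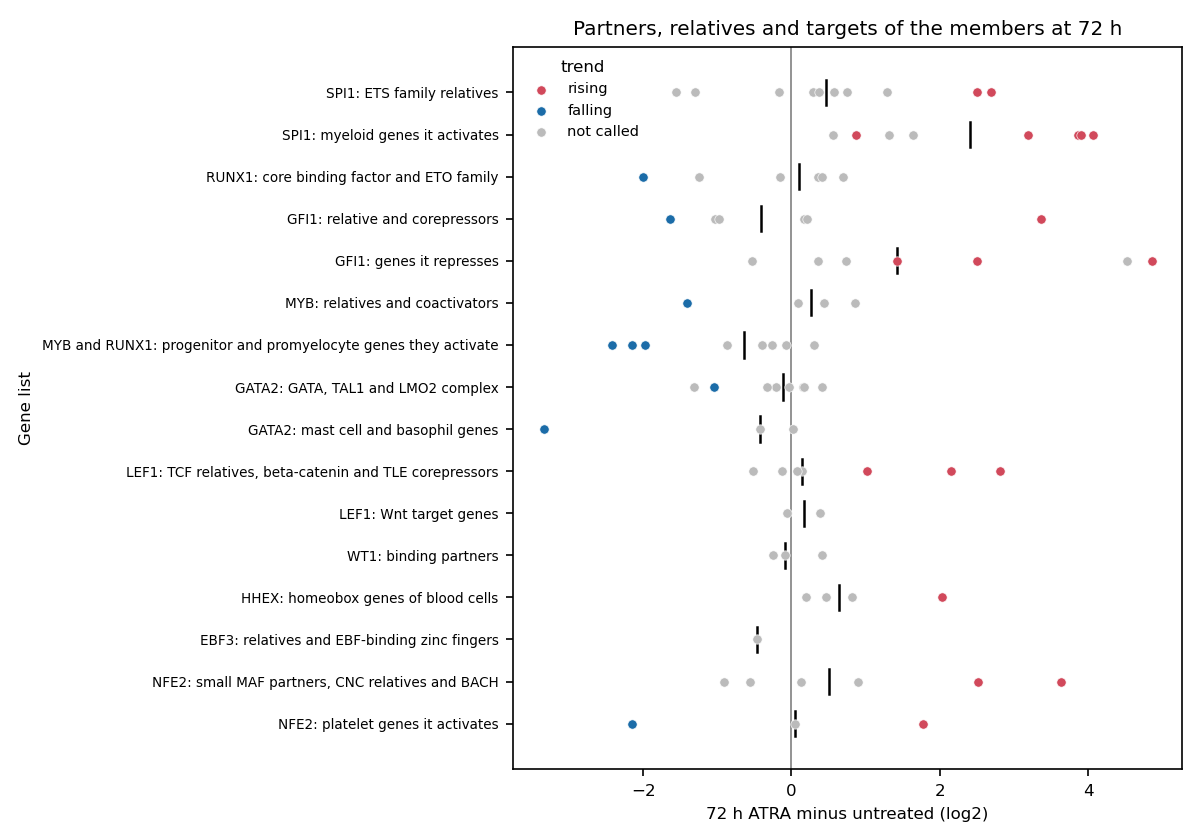
Log2 difference of the 72 h array from the untreated array (x axis) for each kept gene of the lists of partners, relatives and targets (rows), coloured by its called trend over all 6 arrays, with a black bar at each list's median. The SPI1-activated genes have the highest median (2.41), and HDC is the lowest point (-3.34).

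Over all these lists 86 of 114 genes were kept, of which 18 rose and 9 fell, beside 8.33% and 9.86% of all genes. Adding the bioC level to the fit left 15 of those 27 called, with the same sign in all 27. The 12 that lost the call were GFI1B, BTK, ELF4, CBFA2T3, CSF1, MYBL2, MYC, TCF7L2, CTNNB1, HLX, BACH1 and RAB27B. Leaving out the 72 h array left 14 of the 27 called. The slopes of BACH1 (0.26), CSF1 (0.13), HLX (0.21), MYBL2 (-0.16) and MYC (-0.21) were then more than 1.5 times smaller. Without the untreated array those of ELF4 (0.16), CBFA2T3 (-0.14), CTNNB1 (0.11) and GFI1B (0.31) were more than 1.5 times smaller. Of these GFI1B kept its call (limma adjusted p = 0.0304). Under a shift to 1 level of all hybridisation controls HDC was the only falling list gene that kept its call.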

How the data were processed

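Total RNA of 6 NB4 cultures was labelled and hybridised to 1 Affymetrix array per time, per the labels' protocols. The deposited log2 probe set summaries were made with RMA, per the submitters' processing notes. For RMA, its version was not given in the sources used here, nor was a build. Because RMA equalises the arrays, a general rise or loss of RNA cannot be seen, and the number of arrays limits the precision. Samples were grouped by their labelled time.

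Of 54675 probe sets, 41097 have 1 gene in the platform annotation, 1801 several and 11777 none. Without 6 control probe sets 41091 were used, with symbols of 41037 updated through Entrez identifiers to the GRCh38.p14 gene table. Among several probe sets of a gene, the one brightest on average stood for it, and a gene was kept when it reached 3.66, the median of all values, on any array (13594 genes). Slopes over time order were fitted in R 4.3.3 by limma 3.58.1, whose eBayes step used an intensity trend, with a call where the p adjusted by Benjamini-Hochberg was under 0.05. Differences of single arrays, counted at 2-fold, have no test. In a test on simulated data with 13594 genes the fit recovered 54 of 100 genes with a slope of 0.3 and 87 of 100 with 0.6, with 5 false calls.

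Members, gene lists and tests were chosen with earlier results of these data known. Named genes are all members, up to 4 genes per list with the largest 72 h difference, and the 2 nearest courses per member. BTK and genes named as below 3.66 were added after their values were seen. Marker genes and some further list members, such as PRTN3, AZU1 and CSF2RA, are also named outside that rule. Alternatives were other scalings, filters, probe set choices, time in hours, the bioC covariate and leaving out each array. Promoter windows are RefSeq's.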

Additional observations from a re-analysis of the deposited data

How the results depend on the processing

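No paired analysis was possible because each time has 1 array and the labels give no replicate numbers. Leaving out each array in turn, members with a falling trend numbered 2 to 5 and with a rising trend 0 to 1, member probe sets 4 to 8 and 0 to 2, and list genes 4 to 8 and 11 to 17. The low ends of the falling counts are without the 72 h array. WT1 and EBF3 kept their call without any single array (limma adjusted p at most 0.0187 and 0.0132). Within the 4, 24, 48 and 72 h arrays, 1 member gene (HHEX) rose and 0 fell, 1 member probe set rose and 0 fell, and 11 list genes rose and 2 fell, in a fit with fewer arrays. With cyclic loess, the filter at percentile 75 and either control shift, 1 member, SPI1, rose in place of 0. A shift to 1 level of all hybridisation controls, which moves every gene by -0.15 on the 12 h array and by 0.66 or more on the others, left 1 falling list gene, 2 members higher and 3 lower at 4 h, 0 higher at 12 h, 2 higher at 24 h and 3 lower at 48 h. Equalising bioB, bioD and cre (-0.08 to -0.56) gave 14 falling list genes and 6 members lower at 24 h. Of the recomputed member differences 250 kept their side of 2-fold, 15 crossed it and none of those past 2-fold changed sign. The 250 include settings that could not move a difference. Leaving out probe sets with names ending in x_at changed no member's representing probe set, and raising low values to 3.66 touched only values below it. The count is therefore no measure of stability. The cause of these shifts was not tested. Signals below 3.66, as in LEF1, and late EBF3 values limit what can be read.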
